A study of Saccharomyces cerevisiae with 43 samples.

Results

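The late peroxide state was described from 4 arrays of naive cells: 2 at 40 min and 2 at 30 min after 0.4 mM H2O2 was added, out of 43 arrays in all and 32 on the first of 2 array designs. The arrays were chosen by their labels alone. All of them were BY4741 cells (budding yeast, a laboratory strain with 1 set of chromosomes, mating type a), grown in YPD (rich medium) for 3 doublings. Naive means that they had received no NaCl before the peroxide. Each array compared the treated sample in one dye with 0 min cells in the other, and the measured quantity is the log2 ratio of treated over 0 min for each gene. Arrays of the same naive cells at 20 min and at 10 min (3 each) were used to place the late state in time. The background was taken from 3 arrays of mock-treated cells, which went through a 60 min treatment with medium alone and 240 min of growth and were compared with untreated cells. The study as a whole asked how a first, mild stress alters the response to a later one, and the naive cells are its unprimed arm.

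Budding yeast meets hydrogen peroxide with 2 overlapping programmes. The transcription factors Yap1 and Skn7 switch on peroxidases, thioredoxins and glutathione enzymes, while Msn2 and Msn4 drive a general stress programme of chaperones, storage carbohydrates and catalase that many stresses share. At the same time cells reduce the transcripts needed for growth, those of ribosome assembly, ribosomal proteins and cell cycle progression.

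Each late array gave 5266 to 5545 values for the 5604 features of the design, and 4943 features had a value on all 4. The median ratio of each late array was between −0.10 and −0.05. The ratios had a standard deviation (SD) of 1.26 and 1.35 at 40 min, 1.12 and 1.17 at 30 min and 0.293 to 0.344 on the mock arrays. Replicate arrays correlated across genes at r = 0.941 at either time, where genes are not independent replicates. The ratios give each transcript relative to the total labelled RNA, and in a culture fewer cells with a transcript cannot be told apart from less of it per cell. The labels do not say whether replicate arrays came from separate cultures or whether arrays shared a 0 min sample. The error of a shared 0 min sample would be common to the ratios against it. The p-values and standard errors (SE) rest on the spread between replicate arrays, which may be technical. That spread was pooled for each gene over all 32 arrays of the first design, so it is not that of the late arrays alone. Ratios also do not show whether a gene is expressed, so the mating type label could not be tested by level. The SDs at 40 min exceed those at 30 min, so a comparison of the times was repeated with the 4 arrays scaled to 1 spread.

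Pooled over the 4 late arrays, 3843 of 5522 genes passed the test against 0 (limma with Benjamini-Hochberg adjustment over all genes tested, adjusted p under 0.05), which is 69.6% of the genes. Of these, 1756 were higher (31.8%) and 2087 lower (37.8%), 810 and 943 of them by more than 1 on the log2 scale. With the replicate number as a fixed block 3024 passed, 1334 higher and 1690 lower. On the mock arrays none of 5438 genes passed limma's test, and 206 did at an unadjusted p under 0.05. Among the genes with 4 values, 1759 were above 0 on every late array and 1998 below it. A gene that passes here is therefore common, and a count within a list is read against these shares. The lists overlap in some members, such as CTA1, HSP26 and ECM4.

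Among genes with a symbol and 4 late values, the highest ratios belonged to heat-shock and general stress genes. HSP30, the gene of a plasma membrane stress protein, stood at 8.33 and 7.08 at 40 min and at 7.73 and 7.45 at 30 min, a mean of 7.65 ± 0.53 (SD, n = 4, adjusted p = 2.55e-12). DDR2, a general stress gene, read 7.10 and 7.52 at 40 min and 6.53 and 7.60 at 30 min. HSP26 and HSP42 encode the small heat-shock proteins that hold unfolding proteins in the cytosol. HSP26 was at 6.92 and 7.04 at 40 min and at 6.59 and 7.08 at 30 min (mean 6.91 ± 0.22 SD, n = 4, adjusted p = 3.6e-16). HSP42 was at 6.57 and 6.58 at 40 min and at 5.99 and 6.25 at 30 min, so its 2 times did not overlap. The values of HSP30, DDR2 and HSP26 did overlap. RTC3 (mean 6.68), the membrane-associated stress protein gene HSP12 (6.20), the cytosolic catalase gene CTT1 (5.97) and FMP16 (5.85) came next. BTN2 (5.79), ROQ1 (5.78), RGI1 (5.69), the inducible Hsp70 gene SSA4 (5.67), MRX16 (5.55), the peroxiredoxin gene TSA2 (5.45) and SOL4, a gene of the pentose phosphate pathway (5.31), completed the 15 highest, all above 0 on every late array. BTN2 was the member of this group whose 40 min values, 5.38 and 5.52, lay below both of its 30 min values, 6.22 and 6.02. DDR2 also varied widely on the mock arrays, from −2.95 to 1.24, and FMP16 read 2.47 on the 1 mock array that measured it.

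The lowest ratios, chosen in the same way, were those of genes with varied functions, several of them in growth. ILV5, an enzyme of branched-chain amino acid synthesis, stood at −5.31 and −5.45 at 40 min and at −5.34 and −5.22 at 30 min, a mean of −5.33 ± 0.09 (SD, n = 4, adjusted p = 3.92e-16). Its 2 times overlapped. NSR1, the yeast nucleolin that works in ribosomal RNA processing, read −4.28 and −4.83 at 40 min and −3.59 and −3.47 at 30 min, with no overlap between the times. HO, the mating type switching endonuclease, read −4.52 and −4.47 at 40 min against −3.53 and −3.45 at 30 min. TOS6, a cell wall protein gene of the G1 programme, had the widest spread of the 15 lowest, from −5.45 to −2.21 (mean −3.76 ± 1.53 SD, n = 4). HPT1, which salvages purines, averaged −3.57. Then followed DAT1 (−3.52), the bud site gene RAX2 (−3.41), the transporter gene AQR1 (−3.36), the cytochrome b5 gene CYB5 (−3.32), the phosphate transporter gene PHO84 (−3.28), the cyclin-dependent kinase inhibitor gene FAR1 (−3.27), the arginine methyltransferase gene HMT1 (−3.23), UTP15 (−3.20), RPA12 (−3.15) and DBP7 (−3.13). The last 3 belong to ribosome production: UTP15 to the small subunit processome, RPA12 to RNA polymerase I and DBP7, a helicase, to assembly of the large subunit. One value sets much of the mean of DBP7: it read −2.45 and −5.12 at 40 min, against −2.38 and −2.58 at 30 min.

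**Figure D1:**
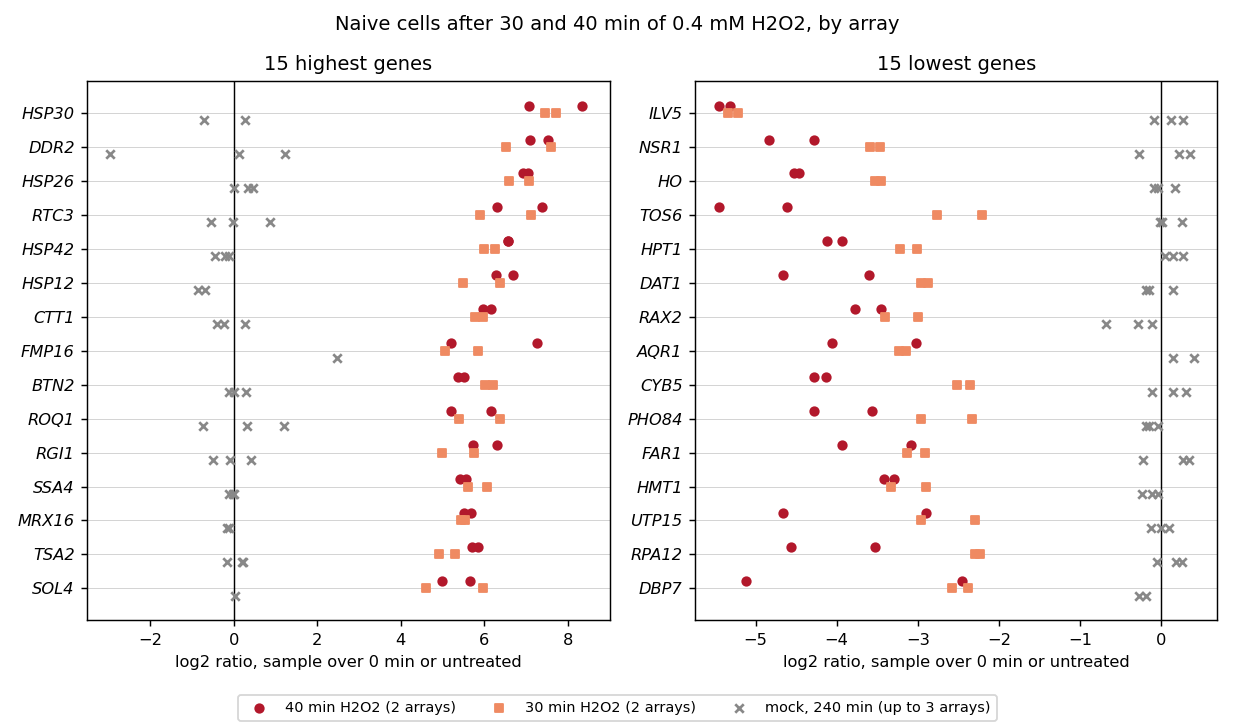
Log2 ratios of the 15 highest and the 15 lowest genes of the late state on each array: filled circles are 40 min, squares 30 min (2 arrays each) and crosses the mock arrays (up to 3 per gene). The H2O2 points of the highest genes lie between 4.60 (SOL4) and 8.33 (HSP30), and the gap between the times is wider among the lowest genes, as for TOS6, CYB5 and RPA12.

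All 13 peroxide-scavenging genes tested rose (median 2.82, against a median of −0.085 over all genes tested). CTT1 was steady, at 5.97 and 6.16 at 40 min and 5.98 and 5.77 at 30 min, and the peroxisomal catalase gene CTA1 read 3.84 and 3.81 at 40 min and 3.62 and 3.07 at 30 min. TSA2, the inducible cytosolic peroxiredoxin, stood at 5.85 and 5.70 at 40 min against 4.92 and 5.31 at 30 min; the difference of 0.66 ± 0.26 (SE) missed the threshold (limma, adjusted p = 0.29). The smallest increases of the list were those of HYR1, a glutathione peroxidase-like peroxidase (1.00), and DOT5, a nuclear peroxiredoxin (0.67). SRX1, the sulfiredoxin that repairs overoxidised peroxiredoxins, was measured on 1 array per time, at 7.04 at 40 min and 7.33 at 30 min, and was not tested.

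The thiol systems that recharge the peroxidases rose with few exceptions, 17 higher and 2 lower of 22 (median 1.13). TRR1, the thioredoxin reductase, was at 3.54 and 3.47 at 40 min and 3.43 and 3.50 at 30 min (mean 3.48 ± 0.05 SD, n = 4, adjusted p = 3.83e-16), and TRX2, the peroxide-responsive thioredoxin, averaged 3.76. Both were nearly flat over the 2 late times. Of the glutathione transferase genes, ECM4 and GTT2 had higher ratios than these: ECM4 read 4.89 and 5.62 at 40 min and 3.96 and 4.26 at 30 min, and GTT2 read 7.04 on the 1 array at 40 min that measured it and 5.30 and 5.38 at 30 min. The transferase genes GTO3 (2.55), GTT1 (1.24) and GTO1 (0.82) averaged less. GSH1, the first enzyme of glutathione synthesis, was at 2.86 and 2.84 at 40 min against 2.29 and 2.11 at 30 min. The 2 members that fell were the glutaredoxin genes GRX4 (−0.89) and GRX6 (−0.43), while another glutaredoxin gene, GRX2, averaged 3.76. Of the reductases and dehydrogenases that act on aldehydes and quinones, 15 of 17 rose and none fell (median 1.94), led by the nitroreductase gene FRM2 (5.26), the old yellow enzyme gene OYE3 (5.20) and the methylglyoxal reductase gene GRE2 (4.12). NADPH supply, which feeds all of these enzymes, was split, with 7 of 16 genes higher and 6 lower (median 0.01). Over all genes 31.8% were higher and 37.8% lower, so such a split is not particular to this list. The stress-type isoforms SOL4 (5.31), NQM1 (4.34) and GND2 (1.89) rose, while RKI1 (−1.95) and ALD6, the cytosolic acetaldehyde dehydrogenase (−1.45), fell.

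Among 20 tested transcription factors and kinases of the stress response, 13 rose and 1 fell (median 1.20). CIN5, a member of the Yap family, stood highest at 5.05 and 5.24 at 40 min and 5.27 and 5.61 at 30 min. YAP1 itself was lower, at 1.73 and 1.64 at 40 min against 0.83 and 0.85 at 30 min (mean 1.26, adjusted p = 8.56e-08). SKN7 fell, with −1.54 and −0.76 at 40 min and −1.61 and −1.09 at 30 min (mean −1.25). MSN4 averaged 1.52 and RPN4, the activator of the proteasome genes, 1.82.

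General stress genes rose in every case tested, 62 of 62 (median 3.23), from 0.95 for the glycogen debranching gene GDB1 and 1.04 for the vacuolar protease gene PEP4 up to 7.19 for DDR2. This list, like the others here, was written with earlier results of these data known. Its counts at any time are therefore a description and not a test. In trehalose and glycogen metabolism 14 of 19 rose and 3 fell (median 1.82). TSL1, a subunit of trehalose synthase, read 3.27 and 4.45 at 40 min and 2.49 and 2.79 at 30 min. GLC3, the glycogen branching enzyme, did not separate the times, at 3.08 and 3.26 at 40 min and 3.60 and 2.93 at 30 min.

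Of 31 genes listed as cytosolic chaperones, which include the plasma membrane protein gene HSP30, 21 rose and 4 fell (median 0.99). The disaggregase gene HSP104 averaged 4.03 ± 0.29 (SD, n = 4). SSB1 and SSB2, Hsp70 genes whose products sit on translating ribosomes, went the other way at −1.25 and −1.21. Of 35 proteasome subunit and proteasome-linked genes 30 rose, with a narrow range around a median of 0.79, and the proteasome activator gene BLM10 alone fell (−1.29). In the ubiquitin system 12 of 17 rose and 3 fell, and the polyubiquitin gene UBI4 was at 3.36 and 3.78 at 40 min and 3.01 and 3.42 at 30 min. Autophagy genes and vacuolar proteases rose in 23 of 28 cases (median 1.10), with the Atg8 conjugation protein gene ATG8 at 3.75 and the vacuolar aminopeptidase gene APE1 at 3.94. ATG41 (4.71) was the highest of that list, and ATG11 (−0.47) the 1 member that fell.

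Respiration and the TCA cycle moved one way, with 40 of 50 genes higher and none lower, at a modest median of 0.73. With all 32 arrays scaled to 1 spread 27 were higher and none lower. Over all genes 1147 of 5522 were higher and 1384 lower under this scaling. The cytochrome c gene CYC1 averaged 3.23 ± 0.10 (SD, n = 4). Of 63 mitochondrial ribosomal protein genes 33 rose and 6 fell (median 0.38; 17 and 1 with all 32 arrays scaled), whereas the cytosolic ribosomal protein genes had a median of −0.81. In glycolysis and hexose transport 18 of 30 rose and 5 fell (10 and 2 with all 32 arrays scaled). The phosphoglycerate mutase homologue gene GPM2 averaged 3.96, and the glucose transporter gene HXT1 averaged −1.65. Of the DNA damage genes 7 of 18 rose and 7 fell, near the 31.8% and 37.8% of all genes. The damage-inducible ribonucleotide reductase gene RNR3 averaged 1.33. RNR1, another ribonucleotide reductase gene, had the lowest mean of this list, −2.78.

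The genes of ribosome production formed the largest block of decreases. Of 123 ribosome biogenesis genes 112 fell and none rose (median −1.41). All 23 tested subunits of RNA polymerases I and III fell (median −1.55), including RPA190, the largest subunit of polymerase I, at −1.82 and −2.31 at 40 min and −1.40 and −1.73 at 30 min. Of 54 translation factors and tRNA synthetases 40 fell and none rose (median −0.73). Of 133 cytosolic ribosomal protein genes 114 fell and 4 rose. With all 32 arrays scaled to 1 spread 70 were lower and none higher, where 1384 of 5522 genes in all were lower. The 4 that rose before scaling included RPL41A and RPL41B, near-identical genes of a very short protein, at 0.95 and 0.96. Many ribosomal protein genes are nearly identical pairs, which spotted probes may not separate, so these counts do not stand for that many independent transcripts.

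Cell cycle transcripts were lower as well. Of 11 histone genes 10 fell, and CSE4, the centromeric histone H3 variant, rose (0.65, adjusted p = 0.0195). With all 32 arrays or the 26 time-course arrays scaled to 1 spread, 10 histone genes were still lower and none higher. Of all 5522 genes 1384 and 1854 were lower under these scalings. Of 32 G1 and S phase genes 24 fell and 3 rose, and the later G2/M and M/G1 list had 28 decreases and 1 increase among 31 members. The rise was that of SIC1, an inhibitor of cyclin-dependent kinase (0.61). The G1 cyclin gene CLN2 stood at −2.40 and −3.43 at 40 min and −1.84 and −1.85 at 30 min. The mitotic cyclin gene CLB2 stood at −3.09 and −2.90 at 40 min and −2.0 and −2.33 at 30 min. The polo kinase gene CDC5 averaged −2.97.

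Several biosynthetic and uptake pathways followed. Purine genes fell in 17 of 22 cases (median −0.78), phosphate genes in 14 of 18 (median −1.13) and genes of ergosterol and fatty acid synthesis in 25 of 33 (median −0.76). PHM8, a phosphatase gene that the phosphate pathway controls, was the 1 phosphate gene that rose, at 3.56 and 4.50 at 40 min and 4.05 and 4.19 at 30 min. The high-affinity transporter genes PHO84 (−3.28) and PHO89 (−2.49) fell. Sulfate and methionine genes were mixed (7 higher and 11 lower of 25), beside 31.8% and 37.8% of all genes. Iron genes were mixed too (10 and 11 of 30). The iron-sulfur scaffold gene ISU2 (3.16) and the mitochondrial iron carrier gene MRS4 (3.01) led the increases. The biotin transporter gene VHT1, kept with the iron list because iron shortage lowers it, had the lowest mean there (−3.11). In branched-chain amino acid and arginine synthesis 6 of 19 rose and 6 fell, with a median of −0.02 that turned to 0.00 or slightly above where the arrays were rescaled. Of 25 genes of peroxisomes and fatty acid oxidation 14 rose and 2 fell (median 0.53). With all 32 arrays scaled to 1 spread 7 were higher and 1 lower, where 1147 of 5522 genes in all were higher. Of the 7 genes specific to mating type a, 4 fell and none rose. These included the a-factor gene MFA2 (−2.02) and BAR1, the protease that degrades alpha-factor (−2.46).

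Between 30 and 40 min most genes moved little. The median absolute difference was 0.265 on the log2 scale, and 3.58% of 4943 genes differed by more than 1. The large differences ran downwards: 164 genes lay more than 1 lower at 40 min and 13 more than 1 higher. Of the 164, 87 (53.0%) stood in the lists of cytosolic ribosomal proteins, ribosome biogenesis, RNA polymerases I and III or translation, which hold 6.37% of the genes compared. With 2 arrays per time, 1 of 4943 genes (0.0202%) passed limma's test of the difference, and 602 had an unadjusted p under 0.05. Both 40 min arrays lay below both 30 min arrays for 1415 genes (28.6%) and above them for 1061 (21.5%).

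That single gene was ATG11, the scaffold that gathers the autophagy machinery at selective cargo. It stood at 0.03 and −0.01 at 40 min against −0.87 and −1.03 at 30 min, and at 10 min and 20 min it had ranged from −1.0 to −0.61. The difference of 0.96 ± 0.17 (SE, n = 2 arrays per time) had an adjusted p of 0.0499, and between 0.11 and 0.36 when any 1 of the 4 arrays was left out. The other 4 genes with the smallest adjusted p among those higher at 40 min did not pass. They were the vacuolar iron exporter gene SMF3 (0.93), SPT21, which acts on histone gene transcription (0.84), AAD15 (1.03) and APL1, an adaptor protein gene (0.73), with adjusted p between 0.158 and 0.176.

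On the lower side TOS6, CSI2 and RPA12 came nearest, each with an adjusted p of 0.067. TOS6 read −4.61 and −5.45 at 40 min against −2.21 and −2.76 at 30 min, a difference of −2.54 ± 0.49 (SE). RPA12 read −3.53 and −4.56 at 40 min against −2.23 and −2.30 at 30 min. CSI2 read −3.81 and −2.95 at 40 min against −1.78 and −1.70 at 30 min. None of the 3 overlapped between the times. COX15, a gene of haem A synthesis, read 0.11 and 0.16 at 40 min against 1.10 and 0.94 at 30 min (adjusted p = 0.112), and its 40 min values lay within its range at 20 min, 0.09 to 0.45. SAM35, a gene of mitochondrial outer membrane assembly, read −1.02 and −1.06 at 40 min against −0.03 and −0.22 at 30 min (adjusted p = 0.112).

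The names of the arrays add a possible grouping. Replicate 2 of 40 min and replicate 2 of 30 min carry the same number, 67, in their names, which the labels call neither a slide nor a batch. With arrays of the same number treated as a random block (estimated correlation 0.526 over all 32 arrays), 275 of 4943 genes passed the comparison of 40 with 30 min (5.56%), 234 lower (4.73%) and 41 higher (0.829%). With the replicate number as a fixed block none of 4943 passed, and 592 had an unadjusted p under 0.05 (limma). The number that passed thus depended on the model. The differences fitted with the block were −2.53 for TOS6, −1.91 for RPA12, −1.51 for CSI2 and 0.96 for ATG11. Within the pair that shares the number, TOS6 differed by −2.69, RPA12 by −2.26, CSI2 by −1.25 and ATG11 by 1.02.

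Cytosolic ribosomal protein genes had the largest shift of any list compared with 10 or more members. Their median over genes was −1.28 and −1.39 on the 40 min arrays against −0.29 and −0.42 on the 30 min arrays. For 127 of 128 of them (99.2%, beside 28.6% of all genes) both 40 min values were below both 30 min values, and RPS28B was the exception. The differences ran from −1.37 for RPL33B to −0.42 for RPS28B, with a median of −0.98. Not one passed the main test, 113 had an unadjusted p under 0.05 and were lower, and 83 of 128 passed, all lower, with the shared number as a random block. Scaling the 4 late arrays to 1 spread left 126 of 128 below, with a median of −0.86. RPS13 shows the course: it read −1.65 and −1.49 at 40 min against −0.28 and −0.55 at 30 min, after −0.64 to −0.25 at 20 min. Tested against 0 at each time, 13 of 135 ribosomal protein genes were lower at 20 min, 36 of 129 at 30 min and 120 of 132 at 40 min, where 29.3%, 29.4% and 33.4% of all genes were lower and 54.7%, 55.2% and 61.4% passed in either direction.

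Ribosome biogenesis genes had a smaller median difference, −0.71. Their medians were −1.61 and −1.91 on the 40 min arrays against −0.99 and −1.13 on the 30 min arrays. Both 40 min values were below both 30 min values for 100 of 117 (85.5%, beside 28.6% of all genes). With all 32 arrays scaled to 1 spread it held for 90 (76.9%, beside 30.3% of all genes). The median difference of biogenesis genes was then −0.31, and that of ribosomal protein genes −0.55. With the random block and no scaling 15 biogenesis genes passed, all lower, where 4.73% of all genes did. RLP24, a factor of large subunit assembly, differed most, with −3.04 and −4.76 at 40 min against −1.55 and −1.77 at 30 min. Tested against 0, 48 of 123 biogenesis genes were lower at 20 min, 81 of 119 at 30 min and 111 of 121 at 40 min. Both 40 min values also lay below both 30 min values for 17 of 18 RNA polymerase I and III subunits (94.4%). The same held for 46 of 52 translation factors and tRNA synthetases (88.5%) and 7 of 10 histones (70%). With all 32 arrays scaled it held for 16 of 18 polymerase subunits, 43 of 52 translation genes and 7 of 10 histones. Their median differences were −0.69, −0.465 and −0.55 as deposited, and −0.33, −0.23 and −0.24 after that scaling. All 4 histone genes (HTA1, HTA2, HTB1 and HTB2) that passed with the random block encode H2A or H2B. HTA1 read −2.27 and −2.21 at 40 min against −1.20 and −1.14 at 30 min, and HTB1 read −1.72 and −1.85 at 40 min against −0.90 and −0.71 at 30 min. SSB1 and SSB2 (differences −0.95 and −1.07) were the 2 cytosolic chaperone genes that passed with it.

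**Figure D2:**
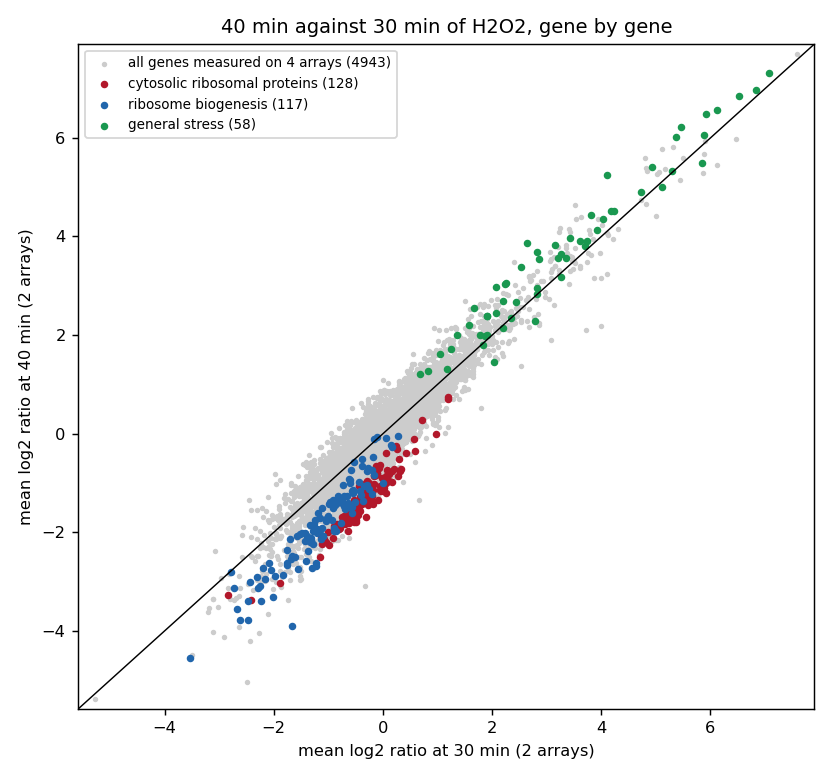
Mean log2 ratio at 40 min (vertical axis) against 30 min (horizontal axis), 2 arrays each, for the 4943 genes with 4 values; the line marks equal values. The 128 ribosomal protein genes lie below the line by a median of 0.98, the 117 ribosome biogenesis genes by less, and the 58 general stress genes above it by a median of 0.34 before any scaling.

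Stress genes differed less between the times, and how they ran depended on the scale. For general stress genes the median difference was 0.34, and both 40 min values were above both 30 min values for 19 of 58 (32.8%, beside 21.5% of all genes) and below for 2. After scaling the 4 late arrays to 1 spread the median was −0.16, with 9 above and 14 below (24.1%, beside 30.3% of all genes below under this scaling). Reductases and dehydrogenases (7 of 16 above, median 0.35), the ubiquitin system (8 of 16, 0.26) and autophagy (10 of 26, 0.30) had small positive medians. Scaling took these medians to 0.06, 0.20 and 0.04, and the reductases to 2 above and 4 below. With the random block 0.829% of all genes passed as higher. In the stress lists these included GSH1 and ECM4 (2 of 19 thioredoxin and glutathione genes) and ECM4 alone of 58 general stress genes. AAD15 passed among 16 reductases and dehydrogenases, YAP1 among 18 stress regulators and the trehalose synthase subunit gene TPS3 among 15 trehalose and glycogen genes. RAD16 passed among 17 DNA damage genes, and ATG2 and ATG11 among 26 autophagy genes. None of 12 peroxide-scavenging, 32 proteasome or 16 ubiquitin genes passed. Of 14 NADPH genes ALD6 and TKL1 passed as lower. ARG4, the last step of arginine synthesis, passed as higher with the random block. It read 1.82 and 1.93 at 40 min against 0.91 and 1.09 at 30 min.

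**Figure D3:**
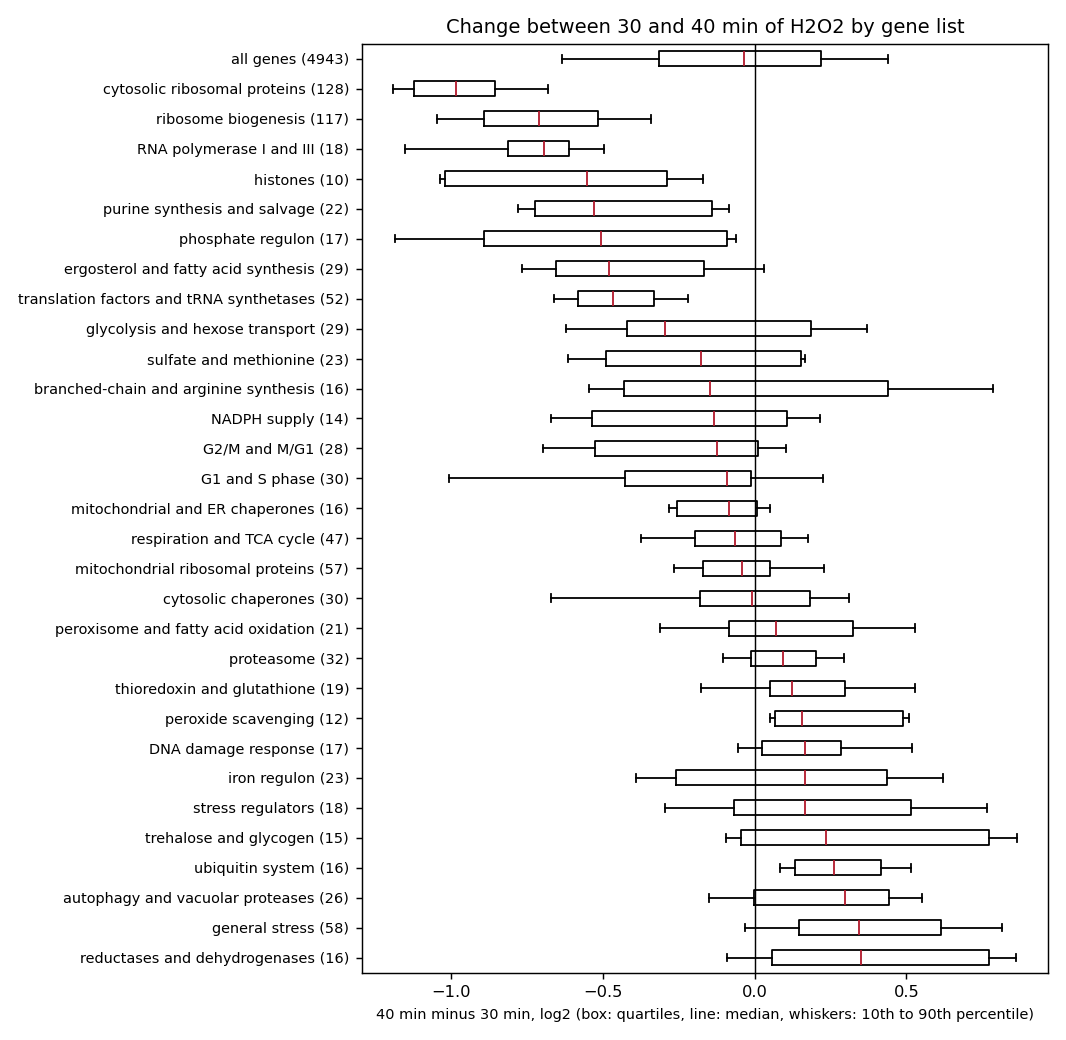
Difference of 40 min minus 30 min on the log2 scale for the genes of each list with 10 or more members on all 4 arrays, and for all genes; boxes give the quartiles with the median, and whiskers the 10th to 90th percentile. Cytosolic ribosomal proteins have the lowest median (−0.98), and all genes together have a median near 0 (−0.04).

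Compared with 20 min, 994 of 5320 genes (18.7%) differed in the late state, 497 higher and 497 lower (9.34% each). With all 32 arrays scaled to 1 spread 1 gene passed, and with the 26 time-course arrays scaled, a setting chosen after seeing the data, 242 did (150 higher and 92 lower). The even split also depended on the setting: 211 genes were higher and 429 lower with the arrays compared fitted alone, and 694 higher and 411 lower without 20 min replicate 3. Leaving out 1 array took the count to 454 (without 40 min replicate 2), 484 (without 30 min replicate 2), 501 (without 20 min replicate 1) or 479 (without 20 min replicate 2). Of 60 general stress genes 34 were higher than at 20 min and none lower. TSL1 differed by 3.06 ± 0.50 (SE, adjusted p = 0.00113), and by 2.04 to 4.08 when any 1 array was left out, passing each time. Its late values of 3.27 and 4.45 at 40 min and 2.49 and 2.79 at 30 min compare with −0.83 and 1.21 at 20 min. Among genes with a symbol UBP13, GTT2, SRL3 and GUD1 were also in the 5 largest differences, each with a missing late value or 1 array far from the rest. UBP13 read −5.46 on 1 of its 2 arrays at 20 min, and without that array its difference was 1.57 (adjusted p = 0.24). SRL3 read 5.31 on its 1 array at 40 min, against 0.54 and 1.27 at 30 min. YAP1 was 1.07 ± 0.22 higher than at 20 min (adjusted p = 0.00291), and the autophagy kinase gene ATG1 read 1.05 and 1.62 at 40 min and 0.33 at 30 min, against −2.19 and −0.28 at 20 min. Without the first of these arrays the difference of ATG1 was 1.11 (adjusted p = 0.087).

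Genes of ribosome production were among the 497 that were lower than at 20 min. Of 133 cytosolic ribosomal protein genes 64 were lower than at 20 min and 2 higher, of 122 biogenesis genes 56 were lower, and of 23 polymerase I and III subunits 14. TOS6 was lower by the largest amount (difference −2.65 ± 0.37 SE, adjusted p = 0.000463), followed by GAP1 (−2.10), RPA12 (−2.10), CYB5 (−2.05) and DAT1 (−2.03). GAP1 rested on 1 array at 20 min that read 3.12, while its other array read −0.71; without that array the difference was −0.19 (adjusted p = 0.85). EFM6 rested on the same array, where it read 2.58 (difference −2.0, and −0.31 without that array). Histones were lower in 8 of 11 cases and purine genes in 13 of 22.

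**Figure D4:**
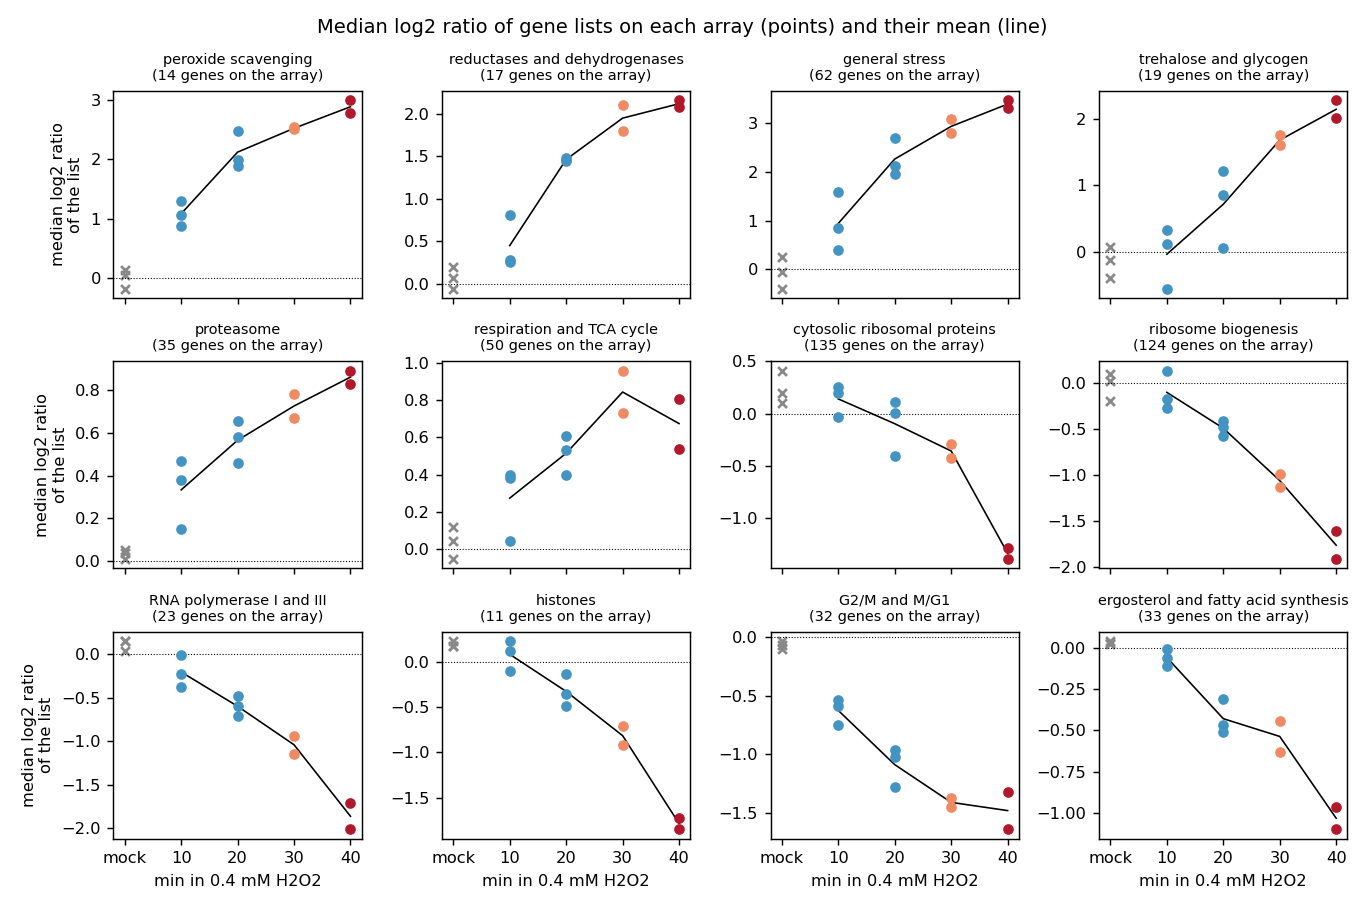
Median log2 ratio of 12 gene lists on each array at 10 and 20 min (3 arrays each), 30 and 40 min (2 each) and on the 3 mock arrays (crosses); lines join the means. The ribosomal protein median lies between −0.41 and 0.26 on the arrays at 10 and 20 min and at −1.28 and −1.39 at 40 min, while the general stress and peroxide-scavenging medians have made most of their rise by 30 min.

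Compared with 10 min, 2279 of 5371 genes (42.4%) differed, 1115 higher (20.8%) and 1164 lower (21.7%). With all 32 arrays scaled to 1 spread 641 passed, 367 higher and 274 lower. HSP12 led, with late values of 6.28 and 6.68 at 40 min and 5.48 and 6.37 at 30 min, against −0.64 and −2.98 at 10 min (difference 8.01 ± 0.84 SE, adjusted p = 1.52e-06). It is a late gene: at 20 min it stood at 2.97 and 4.48. OYE3 (4.63), the aldehyde dehydrogenase gene ALD3 (4.61), the glutamate decarboxylase gene GAD1 (4.47), DAD3 (4.23), SSA4 (4.15) and the aryl-alcohol dehydrogenase gene AAD6 (4.12) followed among genes with a symbol. Of 60 general stress genes 58 were higher than at 10 min. On the lower side TOS6 (−3.59), CYB5 (−3.02), NSR1 (−2.98), UTP15 (−2.95), DAT1 (−2.83) and the ribosomal protein gene RPS9A (−2.83) led. RPS9A read −3.54 and −3.19 at 40 min and −2.96 and −1.86 at 30 min, against −0.10 to −0.03 at 10 min. In all 117 of 133 ribosomal protein genes were lower than at 10 min.

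Some genes changed sides. Tested against the same kind of 0 min cells at each time, 53 genes with a symbol were higher late and lower at 10 min, and 15 were lower late and higher at 10 min. All of them passed the comparison of late with 10 min, as their choice favours. Besides HSP12, the seripauperin gene PAU3, BSC5, the succinate dehydrogenase gene SDH2 and HVG1 had the largest differences of the first kind. The late call against 0 was lost in 3 of 12 settings for HVG1 and in 1 of 14 each for PAU3 and SDH2. SDH2 read 0.46 and 1.24 at 40 min and 0.76 and 1.23 at 30 min, against −1.17 and −1.85 at 10 min. Of the second kind, PHM6 read −2.49 and −1.84 at 40 min and −0.73 and −1.0 at 30 min, against 0.75 to 1.05 at 10 min. HTB1, the mitochondrial import receptor gene TOM20, the cyclin gene PCL2 and the dUTPase gene DUT1 behaved alike, with late means from −1.29 to −0.68 after 0.25 to 0.71 at 10 min on all 12 of their array values.

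**Figure D5:**
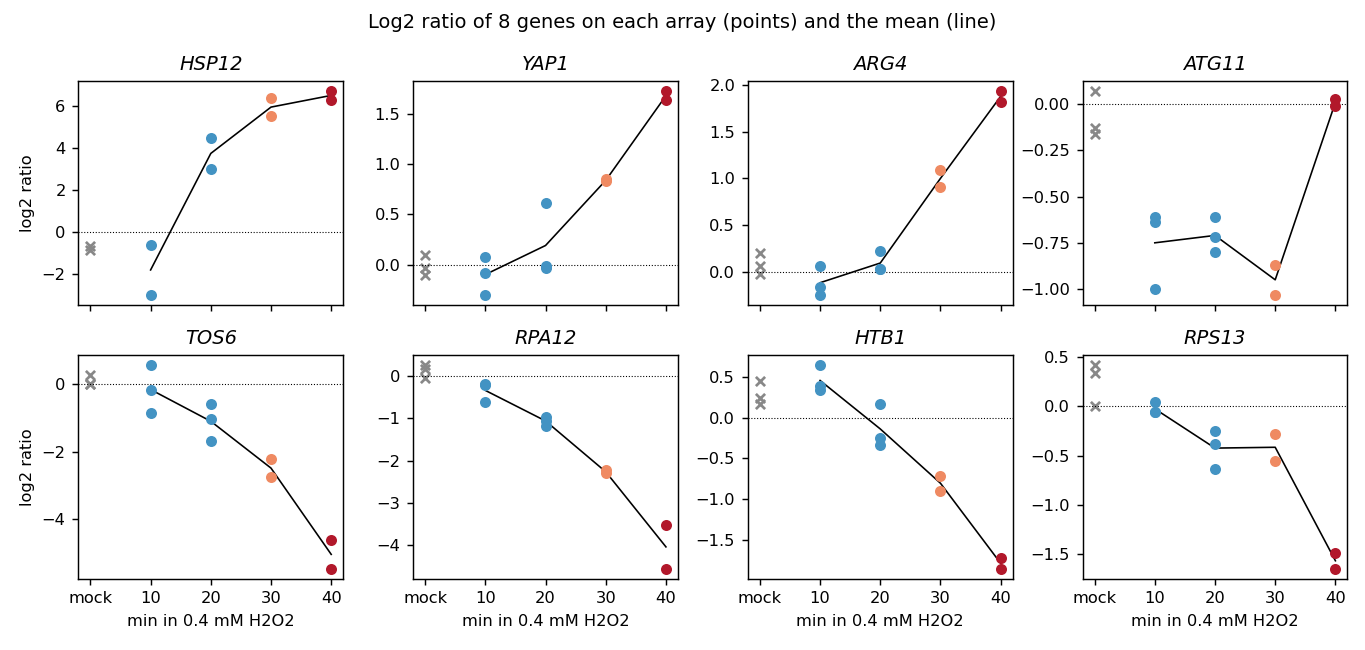
Log2 ratios of 8 genes on each array at 10, 20, 30 and 40 min of H2O2 and on the mock arrays (crosses); lines join the means. HSP12 is below 0 at 10 min and above 5 at 30 and 40 min, YAP1 and ARG4 have their highest values at 40 min, ATG11 is near 0 at 40 min, and TOS6, RPA12, HTB1 and RPS13 have their lowest values at 40 min.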

How the data were processed

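Spotted arrays compared each sample (channel 2) with a 0 min or untreated sample (channel 1), with no dye swap, per the labels' protocols. Values are the log2 ratios deposited by the authors; for their normalization and spot filters the labels give no steps, and intensities were not used. The log base and direction were inferred: NUP42 read −5.36 and −4.75 in the nup42 samples of the second design. The lowest correlation between 2 arrays of the first design was −0.34 and involved no late array, and the dyes in the labels were kept as the direction.

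Group means over the 32 arrays of the first design were fitted with limma 3.58.1 in R 4.3.3 (lmFit and eBayes, Benjamini-Hochberg over all genes tested, threshold 0.05). The late contrast is the mean of 30 and 40 min and needed 3 of 4 values, 40 minus 30 min needed all 4, and 20 or 10 min needed 2 of 3. Missing values (3.35% on the late arrays) were left missing. The number of arrays sets the precision.

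RefSeq gave symbols for 4983 of 5604 features, and 147 had no matching locus tag. Named genes are the 15 highest and 15 lowest late genes (symbol, 4 values, 1 sign, passing), the 10 largest passing differences each way (or the lowest p up to 5), the 3 highest and 2 lowest of each of 33 lists, the 5 largest opposite changes each way, and a fixed set. Genes named for passing with the random block, and the extremes of a list's differences, were chosen after their values were seen. The members and lists were chosen with earlier results of these data known. The fit was run on simulated data with independent noise on each array, which cannot speak to the choice of a block.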

Additional observations from a re-analysis of the deposited data

Results flagged for a closer look

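Of 213 named genes 185 had a value on all 4 late arrays. By Dixon's test 2 of these had 1 array that stood apart from the other 3. The rate of that test by chance, about 1 in 20, holds for 4 values from 1 distribution. Here the values came from 2 times and some genes were chosen for values of 1 sign, so the count was not read against that rate. DBP7 read −5.12 on 40 min replicate 2, with the other 3 late arrays between −2.58 and −2.38. CQD1 read 1.53 on the same array. ATG11 was listed because its ratio at 40 min differed from that at 30 min by 0.96 in a test of the difference itself (limma, adjusted p = 0.0499), with both replicates showing the direction.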

How the results depend on the processing

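Against 0, the late count (3843) was 2531 with all 32 arrays scaled to 1 spread, 1782 of 2407 genes with a value on all 32 arrays (fewer genes tested), 1753 with a mean beyond 1 required as well, and 3265 to 3486 without 1 array. Under the first 2 settings the 30 min count (2876) was 1538 and 1457, the 40 min count (3237) 1594 and 1613, and the late minus 10 min count (2279) 641 and 1201. Without 1 array these 3 were 1935 to 2135, 2442 to 2594 and 1815 to 2159. Late minus 20 min (994) gave 640 from the arrays compared alone, 1 with all 32 scaled, 617 of 2407, 242 with 26 time-course arrays scaled (chosen after seeing the data) and 454 to 1105 without 1 array. The mock count (0) was 930 with all 32 scaled, which enlarges the mock arrays' spread, and 0 to 1 without 1 array.

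For 40 minus 30 min (1 gene) the count was 0 from the arrays compared alone, with all 32 or 26 scaled and with robust eBayes, 2 with arrays centred on their medians, 7 of 2407 genes on all 32 arrays, 275 with the shared number as a random block and 0 to 4 without 1 array. With the replicate number as a block it was 0. Replicate deviations at 30 and 40 min correlated at r = 0.41 across 4943 genes, but with 2 pairs the numbers were not taken as pairing the samples. The block gave 3024 late, 1307 against 20 min (781 higher and 526 lower) and 2449 against 10 min. Without the arrays named YG8, 1375 genes passed against 20 min (801 higher and 574 lower) and 2370 against 10 min.

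Of the counts, 56 stayed within 1.5 times, 25 were smaller and 6 larger. Of the values of named genes 1941 kept their call, 82 lost it, 20 gained it and 15 moved. Of list medians with arrays centred or 1 left out, 290 moved by less than the spread and 19 by more (medians near 0 among them also crossed it), and 1 of at least 0.1 in size changed sign: the stress regulators' 40 minus 30 min median was −0.0175 without 30 min replicate 1 and up to 0.4375 without another. With the 4 late arrays scaled, the 40 minus 30 min medians of general stress (−0.16), peroxide scavenging (−0.11), peroxisome (−0.03) and thioredoxin and glutathione genes (−0.02) turned below 0. HSP12 against 20 min (adjusted p = 0.0459) lost its call without any 1 of 6 arrays. The cause of these changes was not tested except where stated. The planned promoter motif comparison was not run, since no sequences were used here.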
